A study of Homo sapiens with 4 samples.

Results

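The Polycomb and chromatin remodelling genes are 41 genes that encode subunits and partners of 5 groups of chromatin regulators. They were taken by gene symbol from the expression tables, in which all 41 were found among the 17630 genes analysed. By complex they are 9 genes of PRC2, 11 of PRC1, 10 of SWI/SNF, 7 of CHD remodellers and NuRD, and 4 histone demethylase genes. Messenger RNA was measured in 4 libraries of H1, a human embryonic stem cell line, with 1 library per group. The groups were undifferentiated cells (hESC) and 3 sorted populations from a culture towards blood. These were APLNR+ cells of day 2 (MES), CD31+CD34+ cells of day 4 (HEP) and CD31+CD43+ cells of day 7 (HPC). MES cells had received activin A at 40 ng/ml and BMP4 at 50 ng/ml for 2 days. HEP cells had then received VEGF at 40 ng/ml and bFGF at 50 ng/ml for 2 days, and HPC cells the latter pair together with SB-431542, which blocks activin receptor signalling, over 3 more days. All groups come from the same line, and a sort is stated for the 3 differentiated groups only, so in comparisons with hESC the sort and the differentiation cannot be told apart.

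Polycomb proteins keep developmental genes silent and are known for holding lineage genes in check in embryonic stem cells. PRC2 adds methyl groups to a lysine of histone tails, and PRC1 binds this mark, adds ubiquitin to histones and compacts chromatin. SWI/SNF, CHD and NuRD complexes use ATP to move nucleosomes, and the demethylases take methyl groups off histones again.

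Each value is the authors' normalised expression signal for a gene, without a unit in the sources used here. A difference is the log2 difference of (value + 1), on which changes of low genes come out too small. A gene is called higher or lower if this difference is 1 or more in either direction and its value in the higher of both libraries is at least 5. As each group is 1 library, values carry no error and no test could be run, and a call compares libraries rather than conditions. Fewer cells of a type and less RNA per cell cannot be told apart in such bulk samples. Of the 41 genes, 31 reached 5 in any library and 15 in every library, and 10 stayed under 5 throughout and could not be called.

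The libraries carried the antigens they were sorted for. APLNR stood at 0.57 in hESC and 344 in MES. CD34 stood at 43.6 in HEP and SPN, which encodes CD43, at 24.4 in HPC, while PECAM1, which encodes CD31, stood at 1.83 in HEP and 7.49 in HPC, both sorted for it. Of the 6 blood progenitor markers, SPN, GFI1B, MYB and SPI1 were highest in HPC (24.4, 21.0, 17.7 and 11.9). RUNX1 stood at 2.83 in HEP and 2.43 in HPC, and the pan-leukocyte gene PTPRC at 0.04 or less in every library. The 6 markers of erythroid cells summed to 1.13, 3.94, 12.4 and 1191 in hESC, MES, HEP and HPC, and the 4 of megakaryocytes to 2.7, 1.3, 5.64 and 332. The values of all genes summed to between 306724 (HEP) and 426980 (hESC). Differences tracked transcript GC content. Over the 6366 genes whose mean was at least 5, Spearman's rho between GC content and the difference was 0.71 for MES to HEP and 0.22 for hESC to MES. It was -0.43 for HEP to HPC and 0.53 for hESC to HPC. These values are across genes, which are not independent replicates. Each result below is therefore also given with this trend divided out of every library, which brings the libraries to a common median level at each GC content.

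From hESC to MES, JARID2 of PRC2, RBBP7 of PRC2 and NuRD, and CBX2 of PRC1 were lower, and the SWI/SNF genes SMARCD3 and ARID1A were higher. That is 3 of 41 lower and 2 higher, where 3.7% of all genes were lower and 3.79% higher. Among genes at 5 or more in either library the shares were 8.76% lower and 8.97% higher over all genes, and 9.68% and 6.45% over the 31 Polycomb and remodelling genes. Removing the GC trend left 2 lower, without RBBP7, and 3 higher, with CHD7 added (2.19% of all genes lower, 4.07% higher). Median-of-ratios scaling shifted all values relative to hESC on the log2 scale, MES by 0.07, HEP by 0.64 and HPC by 0.62. Under it JARID2 alone was lower and 3 genes were higher (2.64% and 3.53% of all genes).

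From MES to HEP 10 of the 41 genes were lower and 1, PHF19 of PRC2, was higher. Over all genes 13.9% were lower and 3.32% higher. Among genes at 5 or more in either library 33.9% of all genes were lower and 8.1% higher. Of the 30 Polycomb and remodelling genes among them 33.3% were lower, a share near the background. The lower genes were EED, SUZ12 and MTF2 of PRC2, RNF2 and RYBP of PRC1, the remodellers CHD1 and CHD7, the deacetylase HDAC2, and the demethylases KDM6A and KDM1A. After removal of the GC trend, CHD1 and HDAC2 were lower and PHF19 was higher (4.93% of all genes lower, 3.65% higher). With median-of-ratios scaling 6 were lower and 1 higher (8.20% and 8.26% of all genes).

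The step from HEP to HPC gave the fewest calls. SMARCD3 was lower and none was higher, against 3.57% and 3.01% of all genes, or 10.7% and 8.99% of those at 5 or more in either library. Once the GC trend was removed, SMARCC2 was higher (3.32 to 7.29 as deposited) and none was lower (2.67% and 3.52% of all genes).

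Between the ends of the series, 13 of the 41 genes were lower in HPC than in hESC and none was higher. Over all genes 15.8% were lower and 4.67% higher, and among genes at 5 or more in either library 37.4% of all genes were lower and 11.1% higher, and 46.4% of the 28 Polycomb and remodelling genes were lower. Without the GC trend 4 were lower, JARID2, CBX2, KDM2B and HDAC2, and 2 were higher, RYBP and RCOR1 (6.63% and 6.31% of all genes). RYBP and RCOR1 passed by little (1.05 and 1.01) and stood at -0.32 and 0.23 as deposited. With the trend taken over the longest transcript of each gene they stood at 0.90 and 0.88 and were not called. With median-of-ratios scaling 6 were lower and 4 higher (8.92% and 9.04% of all genes). This comparison shares its libraries with the steps above and adds no independent evidence to them. JARID2 is the gene whose calls held in all 13 alternatives tried, both from hESC to MES and from hESC to HPC.

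**Figure D1:**
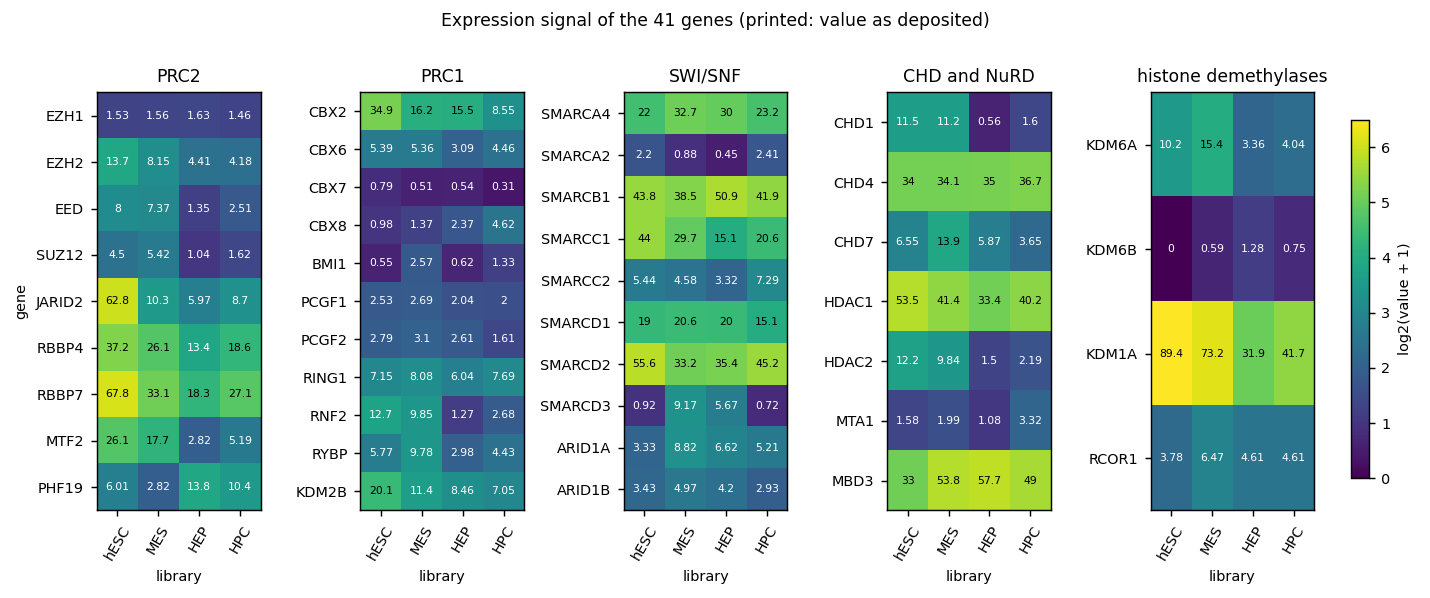
Expression signal of the 41 genes by complex, genes in rows and the 4 libraries in columns. Colour gives log2(value + 1) and the printed number the value as deposited. JARID2 goes from 62.8 in hESC to 10.3 in MES, and EED, SUZ12, MTF2, RNF2, CHD1 and HDAC2 are darker in HEP and HPC than in hESC and MES.

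In PRC2 the catalytic subunits are EZH2 and EZH1, of which EZH1 was too low to be called. EZH2, the methyltransferase of dividing cells, had the values 13.7 (hESC), 8.15 (MES), 4.41 (HEP) and 4.18 (HPC). It was highest in hESC and lowest in HPC, and of the 4 comparisons only that of hESC with HPC passed the rule (-1.5, or -0.58 with the GC trend removed). EZH1, the paralog known from resting cells, stayed between 1.46 and 1.63 in all 4 libraries and under the minimum of 5. The summed level of 6 genes of proliferating cells (MKI67, TOP2A, CCNB1, MCM2, PCNA and CDK1, each at 1 or more in every library) was 621, 438, 202 and 261 in hESC, MES, HEP and HPC. Like EZH2 it was highest in hESC and lower in both later libraries, as were TOP2A, CCNB1, MCM2 and PCNA. MKI67 and CDK1 peaked in MES instead (10.3 and 101, against 4.37 and 71.0 in hESC). MCM2 had its lowest value in MES (55.5), with 78.0 for HEP and 97.2 for HPC. The part of proliferating cells in the result for EZH2 was not tested.

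EED, which reads the methyl mark, and SUZ12, the scaffold of the complex, were low in HEP. EED stood at 8, 7.37, 1.35 and 2.51 in hESC, MES, HEP and HPC, and SUZ12 at 4.5, 5.42, 1.04 and 1.62. Both transcripts are poor in GC (39.1% and 38.4%). From MES to HEP the differences of -1.83 and -1.65 became -0.42 and -0.32 with the GC trend removed. For EED this turned on the transcript used, since its longest protein-coding transcript has a GC content of 45.9%, and with the trend taken over longest transcripts its difference was -1.30 and it was called lower. SUZ12 and RBBP4 have near-identical pseudogene copies, so their values are uncertain where reads were split.

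As deposited, the histone chaperones RBBP4 and RBBP7, which PRC2 and NuRD share, were highest in hESC. RBBP7 stood at 67.8, 33.1, 18.3 and 27.1 and passed the rule from hESC to MES by little (-1.01), which ended with the GC trend removed (-0.74) and with each of the 4 other scalings. RBBP4 stood at 37.2, 26.1, 13.4 and 18.6 and was not called in any comparison. With the GC trend removed RBBP4 stood at 22.4, 19.0, 22.9 and 24.8 and was highest in HPC. Its difference from hESC to HPC went from -0.96 to 0.14.

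As deposited, JARID2 showed the largest difference of the 41 genes from hESC to MES (with the GC trend removed, SMARCD3 did). It encodes a PRC2 cofactor without demethylase activity of its own that helps to place the complex on DNA and is abundant in pluripotent cells. Its values were 62.8, 10.3, 5.97 and 8.7 in hESC, MES, HEP and HPC, so hESC stood apart and the 3 sorted libraries lay close together. The difference was -2.50 from hESC to MES and -2.30 with the GC trend removed. The 6 pluripotency genes read as markers (POU5F1, NANOG, SOX2, PRDM14, DPPA4 and TDGF1) summed to 2150, 782, 133 and 28.3 in the same libraries. That sum was smaller in each later library, and POU5F1 made most of it (1582, 568, 112 and 15.4). From hESC to MES, NANOG, SOX2, PRDM14 and DPPA4 differed by -2.23, -5.36, -2.86 and -2.52. POU5F1 and TDGF1 differed by -1.48 and -0.45 at that step. JARID2 lay between 5.97 and 10.3 in all 3 sorted libraries. The part of pluripotent cells in the level of JARID2 was not tested.

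MTF2 and PHF19 encode Polycomb-like proteins, which take the same place in PRC2 and bind CpG-rich DNA. MTF2 stood at 26.1, 17.7, 2.82 and 5.19, and PHF19 at 6.01, 2.82, 13.8 and 10.4. The libraries that were high for MTF2, hESC and MES, were the low ones for PHF19. From MES to HEP, MTF2 differed by -2.29 and PHF19 by 1.95. The transcripts differ in base composition, with a GC content of 37.8% for MTF2 and 57.2% for PHF19, which bears on this comparison. The middle 90 bases of both coding sequences (GENCODE 29, bases 844 to 933 of MTF2 and 853 to 942 of PHF19) are shown with G and C in capitals, as are those of HDAC2 (688 to 777) and HDAC1 (679 to 768), a second pair that parts in the same step:
MTF2: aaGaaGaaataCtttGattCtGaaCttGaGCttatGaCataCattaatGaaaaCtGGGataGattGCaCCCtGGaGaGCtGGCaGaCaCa
PHF19: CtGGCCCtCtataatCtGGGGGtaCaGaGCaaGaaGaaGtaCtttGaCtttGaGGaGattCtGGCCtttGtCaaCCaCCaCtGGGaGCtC
HDAC2: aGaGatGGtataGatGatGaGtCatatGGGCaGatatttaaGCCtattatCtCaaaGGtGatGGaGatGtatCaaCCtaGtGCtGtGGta
HDAC1: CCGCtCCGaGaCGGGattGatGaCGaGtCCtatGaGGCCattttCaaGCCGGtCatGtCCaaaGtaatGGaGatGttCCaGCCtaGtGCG
The whole coding sequences hold 41.7% GC in MTF2, 57.0% in PHF19, 39.3% in HDAC2 and 50.1% in HDAC1. With the GC trend removed, MTF2 differed by -0.62 from MES to HEP and was no longer called, whereas PHF19 differed by 1.74 and was. The log2 ratio of PHF19 to MTF2 went from -1.95 in hESC and -2.29 in MES to 1.95 in HEP and 0.88 in HPC. Its change from MES to HEP was 4.24, and 2.36 with the GC trend removed, so the ratio still moved towards PHF19.

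**Figure D2:**
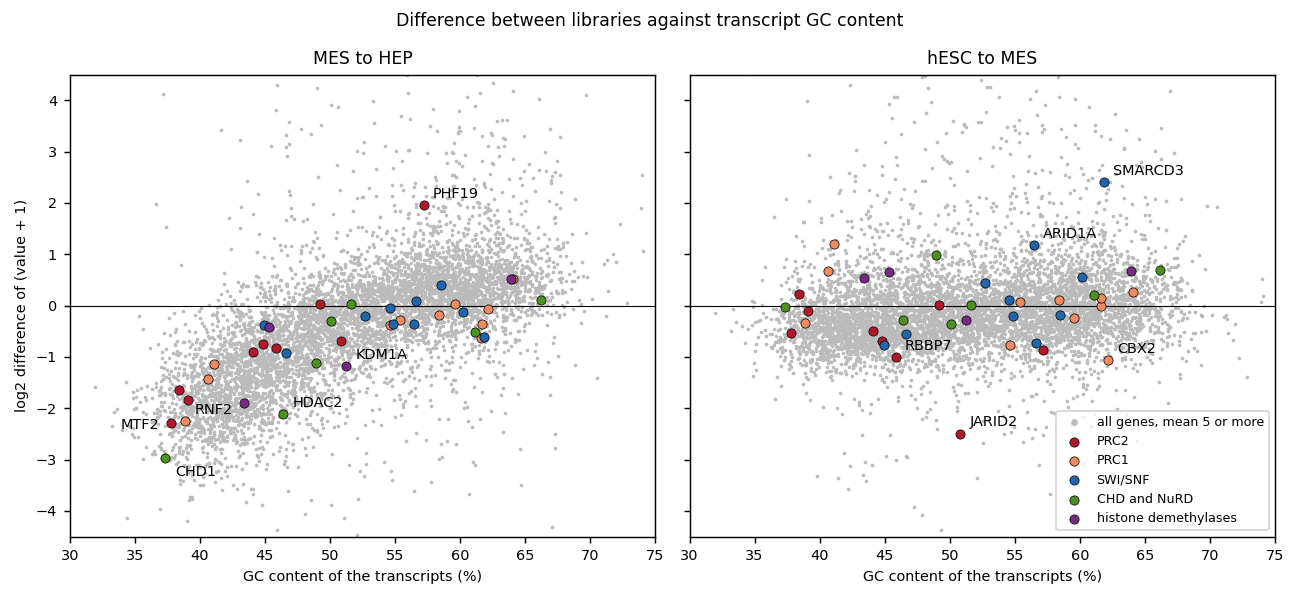
Log2 difference of (value + 1) against transcript GC content, for MES to HEP (left) and hESC to MES (right). Grey points are genes with a mean of 5 or more, of which 30 and 39 beyond 4.5 in size are not drawn, and coloured points are the 41 genes by complex. On the left most coloured points lie within the grey band that slopes up with GC content and PHF19 lies above it at 1.95, and on the right JARID2 lies below the band at -2.50 and SMARCD3 above it at 2.41.

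Several PRC2 genes had a letter match to the E2F motif near a start site, which describes sequence and not binding. Windows of 300 bases, from 250 before to 50 after a start site, were available for 36 of the 41 genes (55 windows, RefSeq, build GRCh38.p14, another build than the hg19 of the expression tables). The motif was searched on both strands as TTTCCCGC, TTTCGCGC, TTTGCCGC or TTTGGCGC. It was found in 5 of the 55 windows, 1 each of EZH1, EZH2, SUZ12, MTF2 and PHF19, or 9.09% against 3.31% of all 35116 windows. Among windows with a GC content of 60% or more it was in 5 of 44 (11.4%) against 4.88% of 16447. The windows of the catalytic subunit EZH2, the scaffold SUZ12 and PHF19, the PRC2 gene that was higher in HEP, are shown 5′ to 3′ on the strand of the gene with the match in capitals. They lie at chr7:148884242-148884541 (minus strand), chr17:31936757-31937056 (plus strand) and chr9:120877139-120877438 (minus strand).
EZH2: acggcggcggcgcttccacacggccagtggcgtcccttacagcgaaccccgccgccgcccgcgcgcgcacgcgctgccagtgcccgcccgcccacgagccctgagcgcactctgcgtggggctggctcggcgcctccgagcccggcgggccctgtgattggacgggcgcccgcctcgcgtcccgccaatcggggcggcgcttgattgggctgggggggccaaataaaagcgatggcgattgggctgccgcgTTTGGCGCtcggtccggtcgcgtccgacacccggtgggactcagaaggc
SUZ12: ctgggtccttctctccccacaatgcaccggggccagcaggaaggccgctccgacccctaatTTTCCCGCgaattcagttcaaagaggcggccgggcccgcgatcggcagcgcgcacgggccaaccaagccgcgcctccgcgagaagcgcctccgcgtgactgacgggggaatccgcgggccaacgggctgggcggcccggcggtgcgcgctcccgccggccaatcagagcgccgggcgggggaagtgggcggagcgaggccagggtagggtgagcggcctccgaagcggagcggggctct
PHF19: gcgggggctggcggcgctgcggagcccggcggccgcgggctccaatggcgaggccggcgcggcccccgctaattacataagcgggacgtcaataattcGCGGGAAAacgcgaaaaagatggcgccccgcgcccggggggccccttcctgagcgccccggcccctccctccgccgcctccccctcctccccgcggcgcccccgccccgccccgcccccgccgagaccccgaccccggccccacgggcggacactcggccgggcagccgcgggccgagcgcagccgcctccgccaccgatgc
As deposited, SUZ12 and MTF2 were lower in HEP than in MES, PHF19 was higher and EZH2 was not called. EZH1 stayed under the minimum of 5. With the GC trend removed, PHF19 alone of these genes was called at this step, as SUZ12 stood at -0.32 and MTF2 at -0.62. A link between the match and these values was not tested. The windows of the 36 genes were rich in GC, with a median of 70.7% against 58.7% over all windows. Among genes with AT-rich transcripts the windows of SUZ12, RNF2, CHD1, KDM6A, MTF2 and RYBP held 62.7% to 73% GC, above the median of all windows. That of EED held 52.3% and some windows of SMARCA2 held 43% to 48.7%, below it. Matches to NRF1 (GCGC, any 2 bases, GCGC) were in 12 of 55 windows (21.8% against 8.32%, or 25% against 15.6% among windows with a GC content of 60% or more), to ETS (CCGGAAG) in 6 (10.9% against 10.3%) and to YY1 (AAGATGG followed by CGG) in 1 (1.82% against 1.20%). EZH1 and EZH2 held both E2F and NRF1 matches, which can overlap.

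Of the 4 CBX reader genes of PRC1, CBX2 was the one called as deposited or with the GC trend removed. CBX2, a chromodomain protein that compacts nucleosomes, had the values 34.9, 16.2, 15.5 and 8.55 in hESC, MES, HEP and HPC. Most of the difference lay between hESC and MES and between HEP and HPC. Its difference from hESC to HPC was -1.91, and -2.09 with the GC trend removed. The first step (-1.06) lost its call with a pseudocount of 5 and with 3 of the 4 other scalings (-0.84 with a common total). CBX8 stood at 0.98, 1.37, 2.37 and 4.62 and so had its highest value where CBX2 had its lowest. The difference of CBX8 from hESC to HPC was 1.51 but its highest value missed the minimum of 5. CBX6 lay between 3.09 and 5.39, and CBX7, the reader best known from mouse embryonic stem cells, between 0.31 and 0.79. The log2 ratio of CBX8 to CBX2 went from -4.18 in hESC through -2.86 and -2.29 to -0.76 in HPC. This change of 3.42 was 3.49 with the GC trend removed, as both transcripts are rich in GC (64.1% and 62.2%).

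The catalytic core of PRC1 holds RING1 or RNF2, the ubiquitin ligases, with a PCGF partner. RNF2 stood at 12.7, 9.85, 1.27 and 2.68 in hESC, MES, HEP and HPC, and RING1 at 7.15, 8.08, 6.04 and 7.69. RNF2 was thus low in HEP and HPC while RING1 was level. The log2 ratio of RING1 to RNF2 changed by 1.89 from MES to HEP but by 0.11 with the GC trend removed (GC content 61.6% and 38.9%). Of the PCGF partners, BMI1 (0.55, 2.57, 0.62 and 1.33), PCGF1 (2.00 to 2.69) and PCGF2 (1.61 to 3.10) were under 5 throughout. BMI1 had its highest value in MES, and its readthrough transcript COMMD3-BMI1, with which it shares sequence, was listed at 0 to 0.15.

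KDM2B and RYBP belong to the variant form of PRC1, KDM2B as the subunit that binds unmethylated CpG. KDM2B stood at 20.05, 11.4, 8.46 and 7.05, highest in hESC and lower in each later library. Its difference from hESC to HPC was -1.39, and -1.34 with the GC trend removed, but it was not called with 3 of the 4 other scalings (-0.82 with median-of-ratios). RYBP stood at 5.77, 9.78, 2.98 and 4.43, highest in MES. Its difference from MES to HEP (-1.44) turned to 0.05 with the GC trend removed (GC content 40.6%). From hESC to HPC it then stood at 1.05, or 0.90 with the trend taken over longest transcripts.

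**Figure D3:**
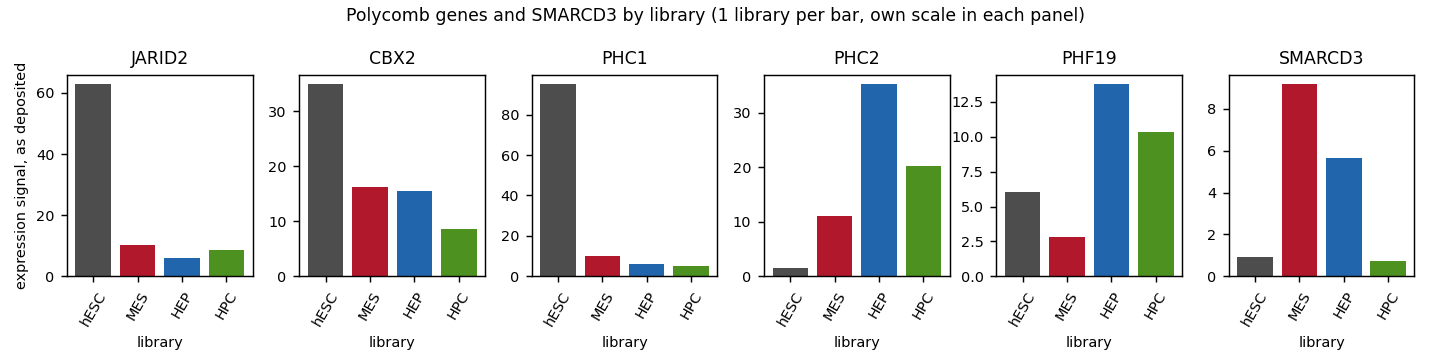
Expression signal as deposited of JARID2, CBX2, PHC1, PHC2, PHF19 and SMARCD3, 1 bar per library and a scale of its own in each panel. PHC1 goes from 95.0 in hESC to 5.10 in HPC while PHC2 goes from 1.56 to 20.4 with its highest value, 35.3, in HEP.

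Other genes of the same complexes were read from a list of 104 genes. From hESC to MES 4 of them were higher and 4 lower (3.79% and 3.7% of all genes), and from MES to HEP 1 was higher and 22 lower (3.32% and 13.9%). From HEP to HPC 1 was higher and 2 lower (3.01% and 3.57%), and from hESC to HPC 3 were higher and 26 lower (4.67% and 15.8%). Removing the GC trend left 5 higher and 2 lower at the first step (4.07% and 2.19% of all genes) and 1 higher and 6 lower from MES to HEP (3.65% and 4.93%). The counts were then 1 and 1 from HEP to HPC (2.67% and 3.52%) and 3 and 10 from hESC to HPC (6.31% and 6.63%). The largest difference among them from hESC to MES, in either direction, was in PRC1. PHC1, a polyhomeotic subunit that lets PRC1 cluster, had the values 95.0, 10.2, 6.03 and 5.1 in hESC, MES, HEP and HPC. PHC1 has a near-identical pseudogene copy, so its value is uncertain where reads were split. Its paralog PHC2 stood at 1.56, 11.2, 35.3 and 20.4. hESC was the high library for PHC1 and the low library for PHC2. From hESC to MES the differences were -3.10 for PHC1 and 2.25 for PHC2, and -3.05 and 2.30 with the GC trend removed. PHC2 was higher again from MES to HEP (1.58, or 1.26). The middle 90 bases of their coding sequences (bases 1462 to 1551 of PHC1 and 1243 to 1332 of PHC2), again with G and C in capitals, show that both are rich in GC (56.1% and 61.2% over the whole coding sequence):
PHC1: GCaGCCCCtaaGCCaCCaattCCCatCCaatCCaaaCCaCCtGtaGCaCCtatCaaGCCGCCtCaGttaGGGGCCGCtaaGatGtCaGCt
PHC2: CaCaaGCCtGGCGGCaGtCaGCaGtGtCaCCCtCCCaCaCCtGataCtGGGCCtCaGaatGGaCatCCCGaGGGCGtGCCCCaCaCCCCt

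Of the 10 SWI/SNF genes, 2 were higher from hESC to MES, or 25% of the 8 at 5 or more in either library, where the share over all such genes was 8.97%. None was called from MES to HEP, where 33.9% of all such genes were lower and 8.1% higher. The 10 genes have GC contents of 44.9% to 61.9% with a median of 55.6%. Of all such genes at 55% GC or more, 6.13% were lower at this step. Of 21 other SWI/SNF genes 6 were lower at this step, and 1 with the GC trend removed. From HEP to HPC 1 was lower (12.5% of 8, against 10.7%), and from hESC to HPC 1 was lower (14.3% of 7, against 37.4%). For the latter comparison the share was 14.1% among all such genes at 55% GC or more. Of the 21 other SWI/SNF genes 5 were lower in it, and 1 with the GC trend removed. The ATPase SMARCA4 stood at 22.01, 32.7, 29.97 and 23.2 and its paralog SMARCA2 at 2.20, 0.88, 0.45 and 2.41. SMARCA4 was highest in MES and HEP, the libraries where SMARCA2 was lowest. Their log2 ratio (SMARCA2 to SMARCA4) changed by -1.32 from hESC to MES and 1.59 from HEP to HPC, and by -1.07 and 1.40 with the GC trend removed. All values of SMARCA2 were under 5, so this ratio rests on a low gene.

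SMARCD3 was the SWI/SNF gene with the largest difference between neighbouring libraries. It encodes a subunit known for working with cardiac transcription factors in mesoderm. Its values were 0.92, 9.17, 5.67 and 0.72 in hESC, MES, HEP and HPC, so the middle libraries were high and both ends were low. The difference was 2.41 from hESC to MES (2.45 with the GC trend removed) and -1.96 from HEP to HPC. The latter was -1.73 once the GC trend was removed, but the HEP value then lay at 4.68, under the minimum. Its paralogs did not share this course, as SMARCD1 stood at 19.0, 20.6, 19.98 and 15.1 and SMARCD2 at 55.6, 33.2, 35.4 and 45.2. The 6 mesoderm markers (T, MIXL1, EOMES, MESP1, HAND1 and PDGFRA) summed to 0.71, 246, 25.3 and 2.95 and were also highest in MES. The 4 markers of smooth muscle and mesenchyme (ACTA2, TAGLN, COL1A1 and COL3A1) summed to 99.9, 576, 314 and 86.05. In hESC, MES and HEP most of this sum was TAGLN, which stood at 94.8, 561, 233 and 12.4 in the same libraries. The others did not share its course, as COL1A1 was highest in HEP (51.3) and ACTA2 and COL3A1 in HPC (19.2 and 41.7). The part of either list in the level of SMARCD3 was not tested.

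Of the other SWI/SNF genes, ARID1A, the DNA-binding subunit, stood at 3.33, 8.82, 6.62 and 5.21 (1.18 from hESC to MES, 1.22 with the GC trend removed). The call rests on a low gene and ended with a pseudocount of 5 and when a trend with transcript length was removed too (0.91). Its paralog ARID1B lay between 2.93 and 4.97. SMARCC1, a scaffold subunit, stood at 44.0, 29.7, 15.1 and 20.6. SMARCC1 was called lower from hESC to HPC (-1.06) but stood at -0.23 with the GC trend removed. SMARCC2, its paralog, stood at 5.44, 4.58, 3.32 and 7.29. The core subunit SMARCB1 lay between 38.5 and 50.9.

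Among the CHD remodellers, CHD1 as deposited showed the largest difference of the 41 genes from MES to HEP (with the GC trend removed, PHF19 at 1.74 was marginally larger). CHD1, which works at active promoters and is known for keeping stem cell chromatin open, had the values 11.5, 11.2, 0.56 and 1.6 in hESC, MES, HEP and HPC. The first pair of libraries was high and the second low. The difference from MES to HEP was -2.96. CHD1 has the lowest GC content of the 41 genes (37.3%), and with the GC trend removed the difference was -1.73, or -1.79 with the GC content of the longest transcripts. From hESC to HPC it went from -2.26 to -0.73 and was no longer called. CHD7, a remodeller of enhancers, stood at 6.55, 13.95, 5.87 and 3.65, highest in MES. CHD4, the ATPase of NuRD, stayed between 34.0 and 36.7.

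In NuRD, which joins a remodeller to histone deacetylases, HDAC2 and HDAC1 parted. HDAC2 stood at 12.2, 9.84, 1.5 and 2.19, and HDAC1 at 53.5, 41.4, 33.4 and 40.2. HDAC2 was low in HEP and HPC, where HDAC1 stayed within 2-fold of its level in hESC. From MES to HEP, HDAC2 differed by -2.12, and by -1.46 with the GC trend removed. This call depends on which transcripts stand for the gene. The 12 protein-coding transcripts of HDAC2 have a median length of 560.5 bases and a GC content of 46.4%, whereas the longest has 38.2%, close to the coding sequence shown above (39.3%). With the trend taken over longest transcripts the difference was -0.69 from MES to HEP and -0.58 from hESC to HPC, and HDAC2 was not called. MBD3, the subunit that names this form of NuRD, stood at 33.0, 53.8, 57.7 and 49.05 and MTA1 at 1.58, 1.99, 1.08 and 3.32, and neither was called.

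Of the demethylases, KDM6A removes the methyl mark of PRC2, as does KDM6B. KDM6A stood at 10.2, 15.4, 3.36 and 4.04, and KDM6B was listed at 0 in hESC and stood at 0.59, 1.28 and 0.75 in MES, HEP and HPC. As deposited, KDM6A was high in hESC and MES and low in the other libraries. With the GC trend removed it stood at 5.85, 10.7, 6.06 and 5.67, so that MES alone was high. KDM6A was called lower from hESC to HPC (-1.15), but its difference was -0.04 with the GC trend removed. Its difference from MES to HEP was -1.91, and -0.73 with the GC trend removed (GC content 43.4%). KDM1A, which with its partner RCOR1 takes methyl groups off active chromatin, stood at 89.4, 73.2, 31.9 and 41.7. Its difference of -1.17 from MES to HEP was -0.95 with the GC trend removed, just under the bound, and it lost its call with each of the 4 other scalings. RCOR1 lay between 3.78 and 6.47. Its paralog RCOR2, read from the list of other genes, stood at 24.9, 36.6, 16.9 and 6.42. RCOR2 was lower at both of the last steps (-1.07 and -1.27), as it was with the GC trend removed (-1.48 and -1.02).

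**Figure D4:**
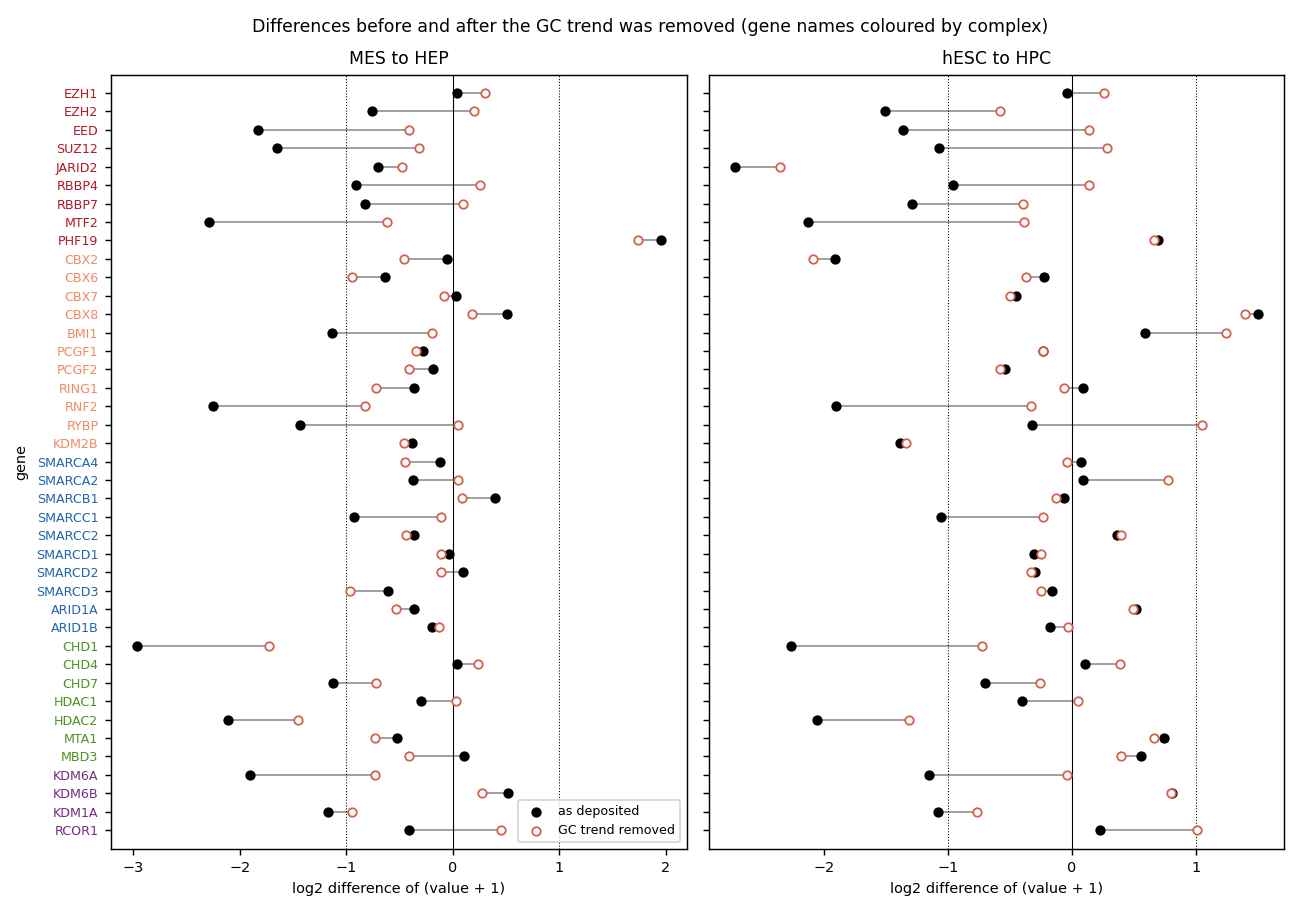
Log2 difference of (value + 1) of each of the 41 genes from MES to HEP (left) and from hESC to HPC (right), as deposited (filled) and with the GC trend removed (open). Dotted lines mark 1 in size. On the left the open points of CHD1 (-1.73) and HDAC2 (-1.46) stay below -1 and that of PHF19 (1.74) above 1, while EED, SUZ12, MTF2, RNF2, RYBP and KDM6A move towards 0.

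Base composition and the differences went together across the 41 genes as across all genes. Over the 41 genes rho was 0.77 between MES and HEP. The genes come from the same libraries and are not independent. It was 0.01 with the trend removed. The 13 genes with a GC content under 46% had a median difference of -1.44, beside -1.52 for the 1875 genes of the same range with a mean of 5 or more, and 7 of them were lower. That is 63.6% of the 11 at 5 or more in either library, where the share over all genes of the range was 75.7%. The 16 genes at 55% or more had a median of -0.09, beside 0.33 for 2414 genes with a mean of 5 or more. No minimum was applied to the medians of the 13 and the 16 genes. Of the 16, 10 reached 5 in either library and none was lower, where the share over all such genes of the range was 6.13%. The median GC content of the 41 genes, 51.6%, was close to that of all genes, 50.6%.

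Genes that take the same place in a complex were compared in 15 pairs by their log2 ratio, whose change between libraries is nearly free of scaling but not of GC content. As the values may not be per length, only the change of a ratio is read, not its level. Of 60 changes (15 pairs in 4 comparisons) 24 were 1 or more in size, in 12 pairs, and 17, in 9 pairs, also with the GC trend removed. Those that kept a change of 1 or more were, besides the pairs already given, CBX6 and CBX7 against CBX2 (1.68 and 1.46 from hESC to HPC, or 1.72 and 1.59), PCGF2 against BMI1 (-1.13 from hESC to HPC, or -1.83) and KDM6B against KDM6A (2.43 from MES to HEP, or 1.01). CBX7, PCGF2, BMI1 and KDM6B were under 5 in every library, so their ratios rest on low genes. The CBX ratios all share CBX2, which differed by -1.91 from hESC to HPC, beside -0.23 for CBX6 and -0.45 for CBX7. SMARCD3 against SMARCD1 changed by 2.29 from hESC to MES and -1.58 from HEP to HPC (2.28 and -1.43). EZH1 against EZH2 changed by 1.46 from hESC to HPC, but by 0.84 with the trend removed, and SMARCC2 against SMARCC1 by 1.42, or 0.63. HDAC2 against HDAC1 changed by -1.81 from MES to HEP, or -1.49, but by -0.69 over longest transcripts. RBBP7 against RBBP4, SMARCD2 against SMARCD1 and ARID1B against ARID1A did not reach 1 in any comparison.

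**Figure D5:**
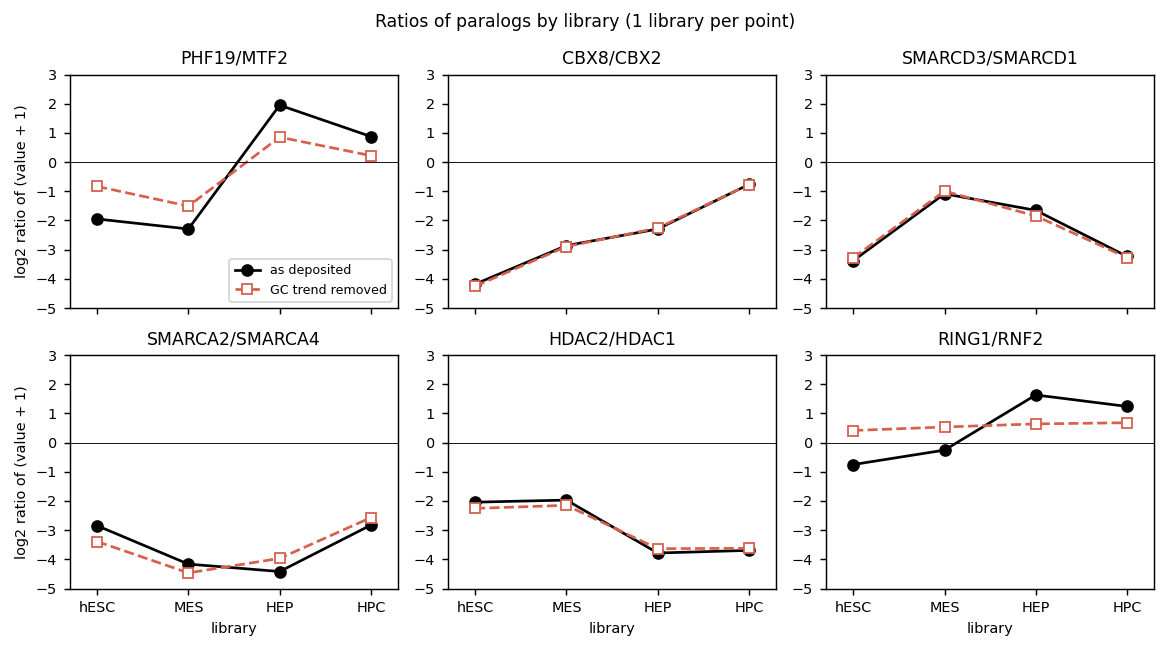
Log2 ratio of (value + 1) of 6 pairs by library, 1 library per point, as deposited (filled) and with the GC trend removed (open). The ratio of CBX8 to CBX2 climbs from -4.18 to -0.76 on both scales alike, that of PHF19 to MTF2 turns between MES and HEP, and that of RING1 to RNF2 is almost flat once the GC trend is removed.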

How the data were processed

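Each library is 1 table of normalised expression signal per gene, as the authors deposited it, written to 2 decimals. The submitters' processing notes name BWA, Bowtie, RSEM and hg19, without versions. What the signal is scaled to, the annotation and any use of strand were not stated. There are no counts, so depth is unknown and neither an interval nor a floor is given. Of 17634 rows, 4 that shared 2 date-like names were left out. Transcript GC content and length came from GENCODE 29 (median of a gene's protein-coding transcripts), which matched 17428 genes (98.9%). To remove the GC trend, genes averaging at least 5 were put in 50 GC bins. The median log2 deviation of each bin in each library, smoothed across 5 bins, was then divided out. Named are all 41 genes, and of 104 other genes those called both as deposited and with the GC trend removed, at most 10 in each comparison. Genes, lists and rules were chosen with earlier results of these data known. The alternatives were 12 planned settings and 1 added after seeing the data, GC content of the longest transcript. Software was Python 3.11.15, pandas 2.3.3, numpy 2.4.6, scipy 1.17.1 and matplotlib 3.10.9.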

Additional observations from a re-analysis of the deposited data

How the results depend on the processing

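With 1 library per group, no library could be left out and no paired analysis was possible. Of the 30 calls of the 41 genes, between 10 and 30 were kept across 13 settings. There were 2 directions that turned with the GC trend removed and with the GC and length trends removed, EED from hESC to HPC (0.14 and 0.15) and RYBP from MES to HEP (0.052 and 0.12).

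Counts that moved by more than 1.5 times are given as higher or lower, and the cause was not tested. Percentages after them are the shares of all genes called under the same setting. From hESC to MES (2 higher, 3 lower as deposited), a pseudocount of 5 gave 1 higher and 1 lower (2.32% and 1.79%). A minimum of 20 gave 0 higher (1.41%). A fold of 1.5 gave 6 higher and 7 lower (6.59% and 10.7%), and a fold of 4 gave 1 and 1 (1.55% and 0.69%). Removing GC and length trends gave 1 higher (3.87%). Median-of-ratios scaling, a common total and a common total without ribosomal protein, histone and globin genes each gave 1 lower (2.64%, 2.04% and 2.05%). From MES to HEP (1 higher, 10 lower), a pseudocount of 5 gave 6 lower (8.39%). A minimum of 20 gave 0 higher and 1 lower (1.63% and 4.71%). A fold of 1.5 gave 17 lower (18.3%), and a fold of 4 gave 0 higher and 4 lower (1.24% and 4.52%). Median-of-ratios and upper quartile scaling each gave 6 lower (8.20% and 8.63%). Each removal of a GC trend (median transcript, with length, longest transcript) gave 2 lower (4.93%, 4.71% and 4.91%). From HEP to HPC (0 higher, 1 lower), a pseudocount of 0.1 gave 1 higher (3.53%) and no minimum gave 2 higher (4.57%). A fold of 1.5 gave 2 higher and 2 lower (6.76% and 6.55%). A pseudocount of 5, a minimum of 20 and a fold of 4 each gave 0 lower, and each removal of a GC trend gave 1 higher and 0 lower. From hESC to HPC (0 higher, 13 lower), no minimum and a fold of 1.5 each gave 1 higher (7.06% and 7.14%). A minimum of 20 gave 7 lower (6.39%) and a fold of 4 gave 4 lower (6.17%). Median-of-ratios scaling gave 4 higher and 6 lower (9.04% and 8.92%). Upper quartile scaling and the reduced common total each gave 3 higher (8.69% and 7.63%) and 7 lower (9.50% and 10.1%). Removing the GC trend gave 2 higher and 4 lower (6.31% and 6.63%), with length 1 higher and 4 lower (6.48% and 6.59%), and over longest transcripts 3 lower (6.45%). The 24 changes in a paralog ratio became 11 with a pseudocount of 5 and 15 with the GC and length trends removed. Depth is unknown, so counting error at low values could not be set beside any of these.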

Other observations

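Among the other genes of these complexes, ASXL1, a partner of the Polycomb deubiquitinase, stood at 2.37, 6.78, 10 and 8.98 in hESC, MES, HEP and HPC (1.21 from hESC to MES). PHF1, the third Polycomb-like gene of PRC2, stood at 3.37, 7.79, 8.94 and 4.36 (1.01), and PHF10, a SWI/SNF subunit, at 5.05, 11.3, 2.67 and 2.87 (1.02). SFMBT1 was lower at this step (5.02 to 1.85, -1.08), but not over longest transcripts (-0.86). From HEP to HPC, MAX, the partner of MYC and of a variant PRC1, was higher (14.96 to 44.7, 1.52), also with the GC trend removed (1.45).

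From MES to HEP the ISWI genes BAZ1A (10.96 to 1.35) and BAZ1B (13.15 to 3.65), the deubiquitinase USP7 (23.8 to 6.21), the NuRD gene CDK2AP1 (47.9 to 14.45) and the SWI/SNF gene SS18 (23.6 to 7.05) were lower as deposited and with the GC trend removed. SS18 was not called over longest transcripts (-0.41). From hESC to HPC, HELLS, a remodeller tied to DNA methylation, went from 70.5 to 5.57, MTA3 of NuRD from 20.6 to 2.51 and CECR2 of ISWI from 10.2 to 1.95. Their differences of -3.44, -2.62 and -1.93 were -1.65, -1.74 and -1.86 with the GC trend removed.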
